A study of Mus musculus with 4 samples.

Results

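Costimulatory and checkpoint ligands are the surface proteins with which a dendritic cell (DC) raises or restrains the response of a T cell that has recognised its antigen. The genes were taken by symbol: Cd40, Cd80, Cd86, Cd274, Pdcd1lg2, Icosl, Tnfsf4, Tnfsf9, Vsir and Pvr, 10 of 46078 gene rows of the deposited count table, and the rule used no measured value. The libraries were poly(A) RNA from sorted mouse DCs. The 2 Il33flx libraries came from mice with loxP-flanked Il33 on both chromosomes and the CD11c-cre transgene (CD11c-cre-Il33flx/flx), and the 2 Ctrl libraries came from mice with CD11c-cre alone, so both groups carried the transgene. All mice had borne EL4-Flt3 tumour cells for 10 days, and neither age nor sex was given in the labels. Cells from spleen plus mesenteric lymph node had been sorted for CD45, CD11b, MHC class II and CD103 and against CD64. Cre under the CD11c promoter acts in DCs and in some other myeloid and lymphoid cells, sorted or not.

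T cells need a signal beside that of their antigen receptor. CD80 and CD86, of the B7 family, bind CD28 to activate and CTLA-4 to restrain, and PD-L1 and PD-L2, encoded by Cd274 and Pdcd1lg2, bind the inhibitory receptor PD-1. ICOS ligand, OX40 ligand (Tnfsf4) and 4-1BB ligand (Tnfsf9) extend activation. VISTA (Vsir) and the poliovirus receptor CD155 (Pvr) are mostly known as restraining ligands, CD155 through TIGIT and CD96, although CD155 also binds the activating receptor CD226. CD40 is a receptor on the DC itself: T cells engage it with CD40 ligand, and its NF-kB signals raise CD80, CD86 and other ligands as the DC matures.

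Values of a group are given for library 1 and then library 2. Libraries held 67707682 and 69983532 gene counts in Il33flx and 81217828 and 75094424 in Ctrl. The targeted gene Il33 had 4 and 0 counts in Il33flx and 4 and 8 in Ctrl, too few to check the labels. The genes of the sort were read in all libraries, at 97.8 to 128 CPM (a gene's reads relative to the total of its library, with TMM factors) for Itgam (CD11b), 56.8 to 116 CPM for Itgae (CD103) and 3.66 to 5.50 CPM for Fcgr1, which encodes the excluded CD64. Xcr1, a marker of type 1 conventional DCs, read 506 to 841 CPM and Sirpa, a type 2 marker, 258 to 319 CPM. Itgax, whose promoter drives Cre, had 359 and 407 CPM in Il33flx, against 647 and 517 CPM in Ctrl (log2 fold change -0.60 ± 0.19 SE, adjusted p = 0.995, edgeR). The library Ctrl 1 stood apart: principal component 1, which held 50% of the variance, placed Ctrl 1 at 70.1 and the other libraries between -26.2 and -18.8. The log2 fold change of each ligand gene is therefore also given without Ctrl 1. Nothing in the labels tells whether each library is 1 mouse or a pool, and p-values reflect only the library-to-library spread, part of which may be technical. In RNA from many cells, fewer cells of a type and less RNA per cell cannot be told apart.

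The ligand genes lie on 7 chromosomes of GRCm38, in GENCODE M21 coordinates. Cd80 (chromosome 16, 38455561 to 38496335) and Cd86 (chromosome 16, 36603869 to 36666081, minus strand) are 1789.5 kb apart. Cd274 (chromosome 19, 29367455 to 29388095) and Pdcd1lg2 (chromosome 19, 29410919 to 29471161) are neighbours, 22.8 kb apart on the plus strand, and lie 537.0 kb and 454.0 kb from Il33, the gene that was floxed. The others are Cd40 (chromosome 2, 165055627 to 165072948), Icosl (chromosome 10, 78069302 to 78083913), Vsir (chromosome 10, 60346851 to 60372684), Tnfsf4 (chromosome 1, 161395409 to 161418410), Tnfsf9 (chromosome 17, 57105325 to 57107757) and, on the minus strand, Pvr (chromosome 7, 19903578 to 19921160). All are protein-coding. Promoter windows from RefSeq (GRCm38.p6, 250 bases before to 50 after the transcription start) matched 5 of the 10 genes: Vsir, Icosl, Cd80, Cd274 and Pdcd1lg2. They were searched on both strands for the kappaB consensus bound by NF-kB and for the STAT site TTCNNNGAA. The windows of Pdcd1lg2 and Icosl each held a kappaB match, beginning at base -244 and at base -111 from the start, and the other 3 held neither motif. Of 27025 promoter windows of the same length, 1 a gene, 8.18% held a kappaB match and 8.47% the STAT site. The windows of Pdcd1lg2 and Icosl are shown for these matches, in capitals, and that of Cd274 because it is the neighbour of Pdcd1lg2 and both genes were highest in Ctrl 1; it holds no match and no capitals. In order, they span chr19:29410669-29410968, chr10:78069118-78069417 and chr19:29367188-29367487, plus strand, 5′ to 3′. The match in Pdcd1lg2 reads as the consensus on both strands and that in Icosl on the minus strand. These are matches of letters, not measured binding.
Pdcd1lg2: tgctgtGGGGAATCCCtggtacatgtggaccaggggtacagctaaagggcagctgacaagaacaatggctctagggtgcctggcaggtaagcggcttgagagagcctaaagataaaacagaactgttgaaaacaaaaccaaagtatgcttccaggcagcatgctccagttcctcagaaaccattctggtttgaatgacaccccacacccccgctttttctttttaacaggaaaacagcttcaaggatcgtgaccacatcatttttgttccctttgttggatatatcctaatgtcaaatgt
Icosl: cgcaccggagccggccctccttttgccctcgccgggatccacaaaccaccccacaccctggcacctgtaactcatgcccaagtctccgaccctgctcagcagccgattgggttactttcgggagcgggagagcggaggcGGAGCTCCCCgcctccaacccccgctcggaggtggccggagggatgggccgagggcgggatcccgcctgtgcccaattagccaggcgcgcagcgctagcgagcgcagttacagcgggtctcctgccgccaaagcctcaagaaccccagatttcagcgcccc
Cd274: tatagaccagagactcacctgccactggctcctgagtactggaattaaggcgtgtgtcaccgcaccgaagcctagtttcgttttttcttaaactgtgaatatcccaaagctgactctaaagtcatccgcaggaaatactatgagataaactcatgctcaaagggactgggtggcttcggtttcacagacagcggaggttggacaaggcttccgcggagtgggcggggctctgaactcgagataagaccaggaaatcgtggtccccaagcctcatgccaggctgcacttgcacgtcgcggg

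Scaled to the length of the merged exons, Cd86 had the highest mean level of the ligand genes in both groups, at 103 ± 1.85 CPM per kb in Il33flx and 97.0 ± 40.0 CPM per kb in Ctrl (SD, n = 2 each). Vsir followed at 51.9 ± 1.05 CPM per kb in Il33flx and 63.2 ± 14.0 CPM per kb in Ctrl. Cd40 came next with 27.2 ± 2.74 CPM per kb in Il33flx and 27.9 ± 9.0 in Ctrl. Icosl had 21.9 ± 0.838 CPM per kb in Il33flx and 23.5 ± 3.84 in Ctrl. Cd86 lay above Vsir in 3 libraries, but in Ctrl 1 Vsir was 1.06 times Cd86, and their ranges over libraries overlapped; so did those of neighbours in the order Cd40, Icosl, Tnfsf9 and Cd274. Vsir lay above Cd40 in every library.

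A lower tier stood apart. Cd80, Pvr and Pdcd1lg2 had mean levels over the libraries of 3.84, 2.99 and 2.63 CPM per kb, with overlapping ranges, and Cd274, the lowest gene of the upper tier at 14.0, was 3.65 times above Cd80 with no overlap. Tnfsf4 was last at 0.0940 CPM per kb, with 3 to 21 counts per library. Cd86 stood above 97.2% of 14945 tested genes on this scale, Cd274 above 77.6%, Cd80 above 54.4% and Tnfsf4 above 8.54%.

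**Figure D1:**
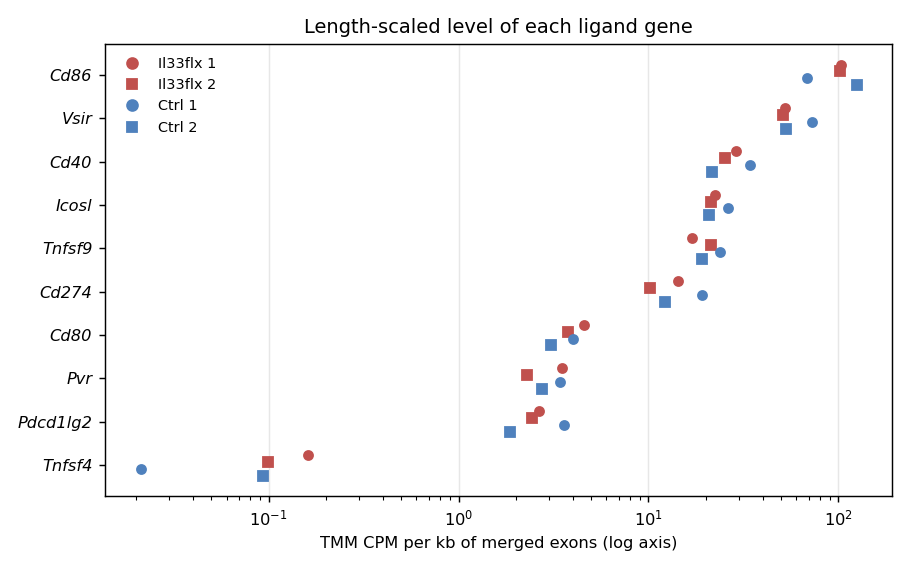
Length-scaled level of each ligand gene in each library, in TMM CPM per kb of merged exons on a log axis; red symbols are Il33flx, blue are Ctrl, circles library 1 and squares library 2. Cd86 and Vsir are highest, with Vsir above Cd86 in Ctrl 1, Cd80, Pvr and Pdcd1lg2 form a lower tier, and Tnfsf4 lies between 0.0212 and 0.161 CPM per kb.

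Within each pair of related ligands, one RNA was the more abundant. Cd86 exceeded Cd80 per kb by 22.9 and 27.1 times in the Il33flx libraries, against 17.2 and 40.9 times in Ctrl 1 and Ctrl 2. Cd274 exceeded Pdcd1lg2 by 5.43 and 4.19 times in Il33flx, against 5.31 and 6.64 times in Ctrl. Both ratios overlapped between the groups, and as ratios within a library they do not depend on the scaling between libraries. The ratio of Cd80 to Cd274 was 0.316 and 0.369 in Il33flx, against 0.209 and 0.248 in Ctrl. This ratio did not overlap between the groups, was named after its values were seen and carries no test. It was the only ratio without overlap among several computed between ligand genes. That of Cd86 to Cd274, for example, was 7.24 and 10.0 in Il33flx, against 3.6 and 10.2 in Ctrl. The share of all gene pairs whose ratio does not overlap was not computed.

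None of the ligand genes was called between Il33flx and Ctrl. All 10 passed the filter on low counts, and 0 were called at an adjusted p below 0.05 in edgeR, 0 with DESeq2 and 0 with limma-voom; 0 had an unadjusted p under 0.05 in edgeR. Over all 14995 genes tested, 0.00667% were called higher and 0% lower in Il33flx, so a count of 0 among 10 is what the background gives. The log2 fold changes ran from -0.36 to 1.17, 3 of them positive and 7 negative, with a median of -0.10, beside 0.01 over all genes tested. Of the members 1, Tnfsf4, was higher in Il33flx with no overlap of the groups, as were 15.4% of all tested genes, and 1, Vsir, was lower without overlap, as were 14.9%. Over all 14995 genes tested, 489 had an unadjusted p under 0.05 (edgeR). These values over all genes are also the background for the gene lists below.

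**Figure D2:**
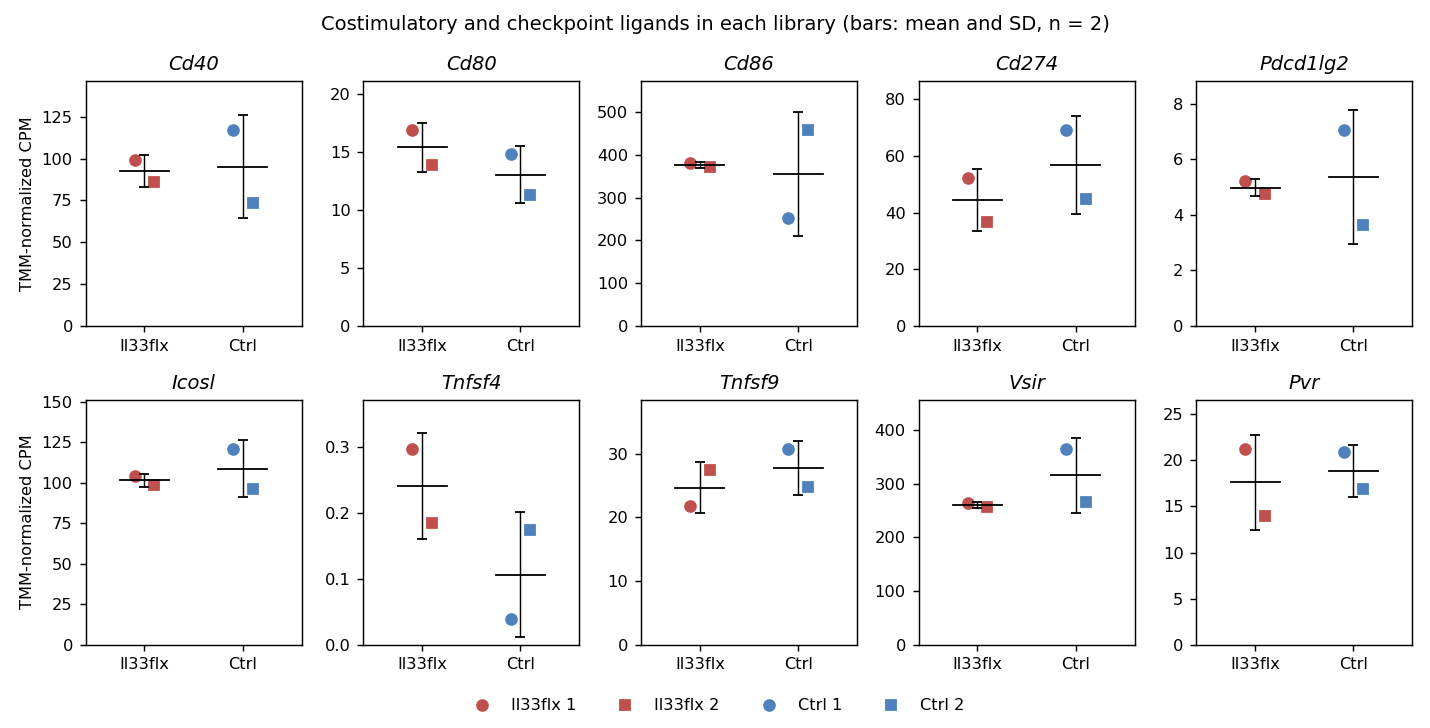
TMM-normalized CPM of each ligand gene in each library, Il33flx in red left of Ctrl in blue, with circles for library 1, squares for library 2 and black bars for the mean and SD of 2 libraries; each axis starts at 0. The groups overlap for 8 genes, and for Cd86 and Vsir the Il33flx libraries lie close together while the Ctrl libraries are spread.

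Cd80 and Cd86 did not move together across libraries. Cd86 read 382 and 372 CPM in the Il33flx libraries, against 252 in Ctrl 1 and 458 in Ctrl 2. The Ctrl libraries thus held both the lowest and the highest value, with the Il33flx libraries between them. Il33flx over Ctrl gave a log2 fold change of 0.09 ± 0.29 SE (95% interval -0.61 to 0.78, adjusted p = 0.995, edgeR). Without Ctrl 1 it was -0.27 (adjusted p = 0.96, edgeR). Cd80 read 16.9 and 13.9 CPM in Il33flx, against 14.8 and 11.3 CPM in Ctrl. The groups overlapped, with Il33flx 1 highest and Ctrl 2 lowest, and the log2 fold change was 0.24 ± 0.25 SE (95% interval -0.37 to 0.84, adjusted p = 0.995, edgeR). For Cd80 it was 0.45 without Ctrl 1, 0.05 without Ctrl 2 and 0.09 without Il33flx 1. With library size alone as the scaling, the Il33flx libraries both lay above Ctrl for Cd80.

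The PD-1 ligands and Cd40 were highest in Ctrl 1. Cd274 read 52.2 and 36.8 CPM in Il33flx, against 69.1 and 44.7 CPM in Ctrl. Il33flx 2 was the lowest library, but Il33flx 1 lay above Ctrl 2, so the groups overlapped. In edgeR, Il33flx over Ctrl gave a log2 fold change of -0.36 ± 0.29 SE (95% interval -1.04 to 0.33, adjusted p = 0.995), and 0.00 without Ctrl 1. Exons of Cd274 share 511 bases with a gene model on the opposite strand, and the strand setting of the counting is not given in the sources used here. Pdcd1lg2 read 5.20 and 4.76 CPM in Il33flx, against 7.05 and 3.64 CPM in Ctrl. Both Il33flx libraries lay between the Ctrl libraries, and the log2 fold change was -0.10 ± 0.38 SE (95% interval -1.01 to 0.81, adjusted p = 0.995, edgeR); without Ctrl 1 it was 0.46 (adjusted p = 1, edgeR). Neither of these neighbours of Il33 was called in any fit run.

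Cd40 read 99.2 and 86.0 CPM in Il33flx, against 117 and 73.3 CPM in Ctrl. The Il33flx values again lay within the Ctrl range. The log2 fold change of Cd40 was -0.04 ± 0.26 SE (95% interval -0.65 to 0.58, adjusted p = 1, edgeR), and 0.35 without Ctrl 1 (adjusted p = 0.953, edgeR). The direction of Cd40 also turned with library size alone, where it was 0.05.

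Icosl, the ligand of the T cell costimulator ICOS, varied least. It had 104 and 98.6 CPM in Il33flx, against 121 and 96.1 CPM in Ctrl. Its highest library was 1.26 times its lowest, and the Il33flx values lay between those of Ctrl. The 95% interval of its log2 fold change, -0.10 ± 0.19 SE, was -0.56 to 0.36 (adjusted p = 0.995, edgeR), that is 0.677 to 1.29 times the Ctrl level. Without Ctrl 1 the log2 fold change was 0.09.

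Among the TNF-superfamily ligands, Tnfsf9 was moderately expressed and Tnfsf4 was close to the detection limit. Tnfsf9 read 21.8 and 27.5 CPM in Il33flx, against 30.8 and 24.8 CPM in Ctrl, with overlapping groups. Its log2 fold change was -0.17 ± 0.23 SE (95% interval -0.73 to 0.38, adjusted p = 0.995, edgeR), and 0.00 without Ctrl 1, -0.02 without Il33flx 1 and -0.33 without Ctrl 2. In Tnfsf9, 192 exon bases are shared with an opposite-strand gene model that had 112 to 217 counts. Tnfsf4 had 21 and 13 counts in Il33flx, against 3 and 13 counts in Ctrl. The groups lie apart in CPM, at 0.297 and 0.184 in Il33flx against 0.0391 and 0.173 in Ctrl, but Il33flx 2 and Ctrl 2 hold the same number of counts, and Ctrl 1 is the low library. Summed over libraries the Il33flx libraries had 2.28 times the Ctrl level (95% exact counting interval 1.23 to 4.43, counting error only). With the spread between libraries taken in, the log2 fold change was 1.17 ± 0.91 SE (95% interval -1.01 to 3.35, adjusted p = 0.995, edgeR), and it was 0.48 without Ctrl 1.

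For the restraining ligands Vsir and Pvr the intervals of the difference also included 0. Vsir read 264 and 256 CPM in Il33flx, against 366 and 267 CPM in Ctrl. Both Il33flx libraries were lower, but Il33flx 1 and Ctrl 2 nearly coincided, and with library size alone as the scaling the groups overlapped. The log2 fold change was -0.28 ± 0.21 SE (95% interval -0.78 to 0.21, unadjusted p = 0.21, adjusted p = 0.995, edgeR), and without Ctrl 1 it was -0.03. Vsir lies within Cdh23 on the opposite strand, with no shared exon bases. Pvr read 21.3 and 14.0 CPM in Il33flx, against 20.9 and 16.9 CPM in Ctrl, so that Il33flx held both extremes. Its log2 fold change was -0.09 ± 0.28 SE (95% interval -0.76 to 0.57, adjusted p = 0.995, edgeR) and turned to 0.08 without Ctrl 1.

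In the authors' deposited table of their DESeq2 comparison, the same genes had log2 fold changes of Il33flx over Ctrl from -0.38 for Cd274 to 1.16 for Tnfsf4. The authors' deposited table gave 0.21 for Cd80, 0.06 for Cd86 and -0.31 for Vsir, and an adjusted p of 1 for all 10.

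The spread between the Ctrl libraries exceeded the difference between the groups for every ligand gene. On the log2 scale, the gap between Ctrl 1 and Ctrl 2 was larger than the gap between group means for 10 of 10 members, and for 70.9% of all tested genes. The gap between the Il33flx libraries was larger than the group gap for 6 of 10 members, and for 51.6% of all tested genes. Median gaps of the members were 0.54 between the Ctrl libraries, 0.24 between the Il33flx libraries and 0.16 between the group means, beside 0.37, 0.22 and 0.21 over all tested genes. Ctrl 1 lay above Ctrl 2 for 8 of 10 members, as for 51.2% of all tested genes, and Cd86 and Tnfsf4 went the other way. Cd86 in Ctrl 1 was 0.549 times its level in Ctrl 2, whereas Pdcd1lg2 was 1.94 times, Cd40 1.59 times and Cd274 1.55 times. As a share of the summed length-scaled level of the 10 genes, Cd86 made up 41.6% and 42.5% in Il33flx, against 26.8% in Ctrl 1 and 48.1% in Ctrl 2.

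**Figure D3:**
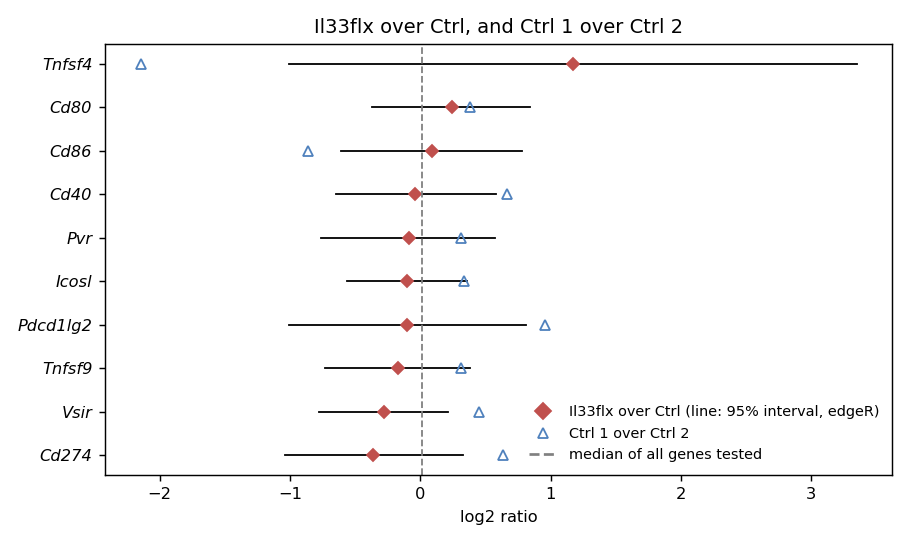
Log2 ratio of Il33flx over Ctrl for each ligand gene (red diamonds, black lines the 95% interval from edgeR) with the log2 ratio of Ctrl 1 over Ctrl 2 (open blue triangles); the dashed line is the median of all genes tested, 0.01. Every interval includes 0, and for all 10 genes the triangle lies farther from 0 than the diamond.

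Without Ctrl 1, 7 of 10 members had a positive log2 fold change and 3 a negative one, with a median of 0.08, and Cd40, Cd86, Cd274, Pdcd1lg2, Icosl and Pvr changed sign, Cd274 to a value that rounds to 0.00. Without Ctrl 2, which leaves Ctrl 1 as the only Ctrl library, 3 were positive and 7 negative with a median of -0.30, and the lowest adjusted p was 0.141 (edgeR), that of Cd86. No member was called in either fit.

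CD40 signals through TRAF adaptors to NIK (Map3k14) and the non-canonical NF-kB subunits, and most of these genes, like most of the ligands, were higher in Ctrl 1 than in Ctrl 2. Of 12 genes on this list, 10 were higher in Ctrl 1 than in Ctrl 2 and 9 had their highest value in Ctrl 1, beside 51.2% and 34.2% of all tested genes. Relb, the non-canonical NF-kB subunit, had 300 and 292 CPM in Il33flx, against 454 CPM in Ctrl 1 and 245 in Ctrl 2. Traf1, an NF-kB-induced adaptor, had 268 and 276 CPM in Il33flx, against 378 and 236 CPM in Ctrl. Between the groups 0 of 12 were called and 0 had an unadjusted p under 0.05 in edgeR, 0 were higher and 3 lower without overlap, and the median log2 fold change was -0.12. The 4 with the smallest p had an adjusted p of 0.995 each in edgeR. Of these, the adaptor gene Traf5 had 39.0 ± 1.63 CPM in Il33flx and 49.3 ± 9.74 CPM in Ctrl (SD, n = 2 each, here and in the next paragraphs), and Traf2 had 97.7 ± 2.34 CPM in Il33flx and 116 ± 23.8 CPM in Ctrl. The ubiquitin ligase gene Birc3 had 147 ± 19.8 CPM in Il33flx and 180 ± 42.9 CPM in Ctrl. Chuk, which encodes IKK-alpha, had its higher mean in Il33flx, with 124 ± 11.8 CPM in Il33flx and 92.4 ± 42.5 CPM in Ctrl. The list's median was 0.05 without Ctrl 1, and Traf1 turned to 0.22, against -0.17 with it.

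Genes of mature DCs were also mostly highest in Ctrl 1. Of 15 such genes, 11 were higher in Ctrl 1 than in Ctrl 2 and 9 were highest in Ctrl 1, beside the same 51.2% and 34.2% of all tested genes. Ccr7, the chemokine receptor of migrating DCs, had 475 and 415 CPM in Il33flx, against 999 CPM in Ctrl 1 and 489 in Ctrl 2, and the actin-bundling gene Fscn1 had 96.7 and 78.1 CPM in Il33flx, against 227 and 86.1 CPM in Ctrl. The chemokine gene Ccl5 had 58.5 ± 7.53 CPM in Il33flx and 79.6 ± 25.9 CPM in Ctrl. The calcium channel subunit gene Cacnb3 had 59.7 ± 8.87 CPM in Il33flx and 95.8 ± 58.0 CPM in Ctrl. Summed over the list, the level was 2882 and 2953 CPM in Il33flx, against 4149 and 2825 CPM in Ctrl. Between the groups 0 of 15 were called and 0 had an unadjusted p under 0.05 (edgeR), 1 was higher and 1 lower without overlap, and the median log2 fold change was -0.28, or 0.10 without Ctrl 1. The 4 mature DC genes that were lower in Ctrl 1 than in Ctrl 2 had their lowest value in Ctrl 1, as did Cd86 and Tnfsf4. The cytokine gene Il15 had 16.7 and 15.2 CPM in Il33flx, against 7.75 CPM in Ctrl 1 and 17.9 in Ctrl 2, and the rest were Il12b, Samsn1 and Tmem123. Without Ctrl 1 the log2 fold changes of Relb (0.28), Fscn1 (0.03) and Cacnb3 (0.13) were positive, against -0.24, -0.84 and -0.68 with it. Those of Ccr7 (-0.13) and Ccl5 (-0.06) stayed negative, against -0.74 and -0.45 with Ctrl 1. Of the 15 genes, 9 were positive and 6 negative without Ctrl 1.

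**Figure D4:**
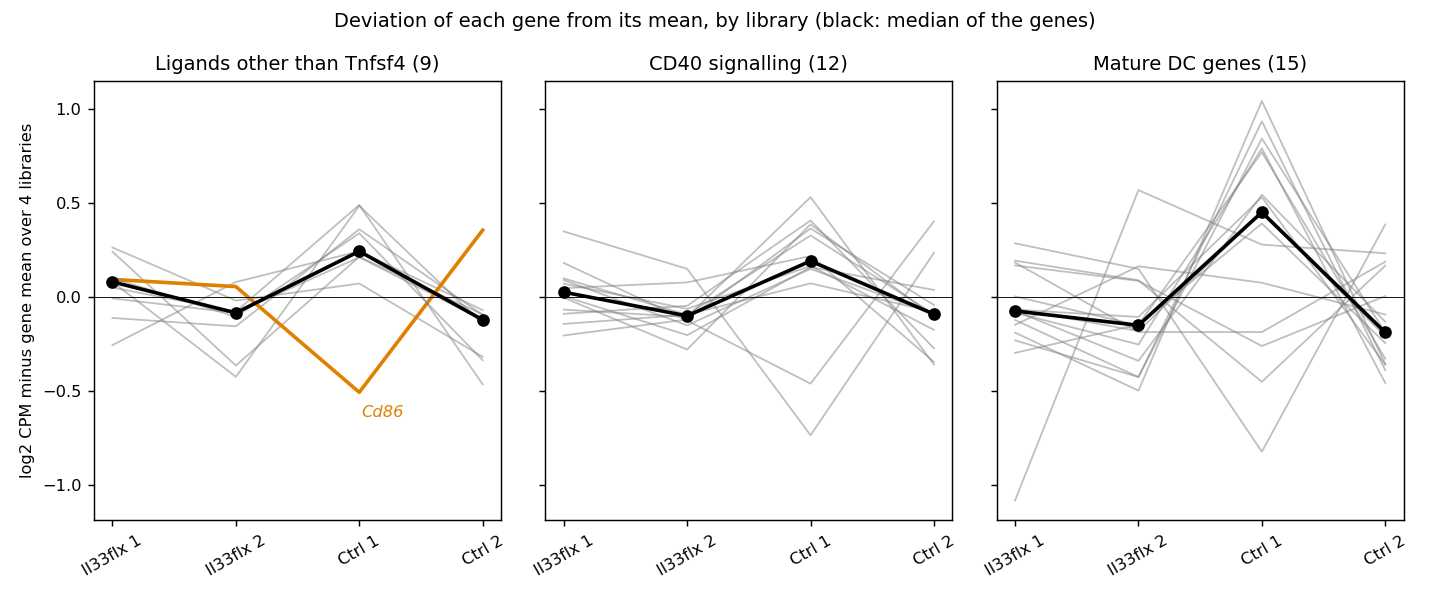
Log2 CPM of each gene minus its mean over the 4 libraries, for the ligands other than Tnfsf4, the CD40 signalling genes and the mature DC genes, with the median of the genes in black and Cd86 in orange. The medians of all 3 groups peak in Ctrl 1, where Cd86 has its lowest value.

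Regulators of PD-L1, CD80 and CD86 were read in all libraries. Among 11 genes of the interferon-gamma receptor pathway and of protein turnover, 0 were called and 0 had an unadjusted p under 0.05 (edgeR), 1 was higher and 3 lower without overlap, and the median log2 fold change was -0.05. March1, a ubiquitin ligase that removes CD86 from the DC surface, had 123 and 111 CPM in Il33flx, against 124 and 132 CPM in Ctrl. The kinase gene Jak2 had 59.7 ± 8.48 CPM in Il33flx and 80.3 ± 16.2 CPM in Ctrl, and Jak1 had 341 ± 10.6 CPM in Il33flx and 308 ± 30 CPM in Ctrl. The receptor subunit gene Ifngr1 had 945 and 1057 CPM in Il33flx, against 556 and 1106 CPM in Ctrl, and its log2 fold change of 0.27 turned to -0.14 without Ctrl 1. Each had an adjusted p of 0.995 in edgeR.

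Other ligand and receptor genes, of the B7, nectin and TNF-superfamily and of further families, Icam1 and Btla among them, were not called. Of 21 listed, 19 were tested, 0 were called and 0 had an unadjusted p under 0.05 (edgeR), 2 were higher and 3 lower without overlap, and the median log2 fold change was -0.02. Vtcn1, another B7 gene, had 0 counts in each library, and Nectin3 had 1 count in Il33flx 1 and 0 in the others. Icam1, the adhesion ligand of LFA-1, had 422 ± 22.4 CPM in Il33flx and 553 ± 141 CPM in Ctrl, and the B7 gene Cd276 had 0.940 ± 0.208 CPM in Il33flx and 1.59 ± 0.321 CPM in Ctrl. Tnfsf8, the CD30 ligand gene, had 6.49 ± 0.0148 CPM in Il33flx and 4.63 ± 1.10 CPM in Ctrl. Nectin2, which encodes a nectin related to CD155, had 2.08 ± 0.235 CPM in Il33flx and 2.92 ± 1.12 CPM in Ctrl. Each had an adjusted p of 0.995 in edgeR.

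The T cell receptors of these ligands, with the CD40 ligand gene Cd40lg, were read in the sorted cells at 0.522 CPM (Cd40lg) to 38.8 CPM (Tnfrsf4). Of these 10 genes 0 were called and 0 had an unadjusted p under 0.05 (edgeR). Without overlap, 1 was higher and 2 lower, and the median log2 fold change was -0.24. Ctla4 had 5.37 and 6.0 CPM in Il33flx, against 2.41 and 4.73 CPM in Ctrl. Tnfrsf4, which encodes OX40, had 19.6 and 17.2 CPM in Il33flx, against 38.8 and 17.3 CPM in Ctrl, with Ctrl 1 alone set apart. Tnfrsf9, which encodes 4-1BB, had 8.39 and 6.45 CPM in Il33flx, against 16.6 and 6.79 CPM in Ctrl. Without Ctrl 1 the log2 fold change of Tnfrsf4 was 0.10, against -0.61 with it, and that of Tnfrsf9 was 0.14, against -0.66. Pdcd1, the PD-1 gene, had 6.10 ± 0.234 CPM in Il33flx and 7.58 ± 0.525 CPM in Ctrl. T cell and EL4 marker genes were also present, and all 12 listed were tested. Of these, 6 were lower and 0 higher without overlap, beside 14.9% and 15.4% of all tested genes. Their summed level was 153 and 119 CPM in Il33flx, against 191 and 140 CPM in Ctrl. Of the 12, 9 were highest in Ctrl 1, beside 34.2% of all tested genes. Their median log2 fold change was -0.47, or -0.15 without Ctrl 1, where 4 were positive and 8 negative. Cd3e had 9.11 and 6.69 CPM in Il33flx, against 14.0 and 10.8 CPM in Ctrl. The part of T cell RNA in the receptor values was not tested.

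B cells and macrophages can express Cd40, Cd80, Cd86 and Icosl too, and their markers were read beside these genes. Of 12 B cell markers 11 were higher in Il33flx without overlap and 0 lower, beside 15.4% and 14.9% of all tested genes. In the edgeR fit of all 4 libraries 0 were called and 7 had an unadjusted p under 0.05, beside 489 of all 14995 genes tested. The immunoglobulin gene Ighm, the marker whose groups overlapped, had 1034 and 915 CPM in Il33flx, against 1243 and 904 CPM in Ctrl. Its log2 fold change was -0.14. Ighm dominates the summed level of the 12 markers, which was 1181 and 1041 CPM in Il33flx, against 1318 and 978 CPM in Ctrl, and overlapped. Without Ighm their summed level was 147 and 126 CPM in Il33flx, against 74.9 and 74.4 CPM in Ctrl. The 12 macrophage and monocyte markers summed to 2021 and 1895 CPM in Il33flx, against 2048 and 1834 CPM in Ctrl, with 0 higher and 0 lower without overlap. No marker of either list was at 0 in all libraries. The part of B cell RNA in the ligand values was not tested.

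For the 3 ligand genes with the largest spread over libraries, the genes of most similar pattern were found among 7849 protein-coding genes of at least 10 CPM, by the root mean square difference in centred log2 CPM over the 4 libraries. For Tnfsf4, whose highest library was 7.61 times its lowest, these were Steap4 (0.221), the interferon-induced gene Rtp4 (0.312) and Acod1, which encodes the itaconate-producing enzyme (0.321), all with their lowest value in Ctrl 1. For Pdcd1lg2, at a ratio of 1.94, they were Anxa3 (0.056), Pstpip2 (0.065) and Ptgis (0.067). For Cd274, at 1.88, they were Vsig10 (0.044), Igf2r (0.050) and L1cam (0.051), each highest in Ctrl 1. With 4 libraries many genes share an order, and the likeness is a description.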

How the data were processed

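RNA of 4 libraries, 2 Il33flx and 2 Ctrl, was analysed from the deposited gene counts, raw whole-number counts per Ensembl gene. Per the submitters' processing notes, the authors used Trimmomatic 0.39, STAR, HTSeq and DESeq2 with GRCm38; other versions, the annotation release and the strand setting are not given in the sources used here. The authors' deposited comparison table holds log2 fold changes with standard errors, a Wald score, p-values and a signal per library that equals counts over a size factor. The 5 HTSeq summary rows, 27.8% to 30.1% of reads, stayed out of library sizes and tests.

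The contrast of Il33flx over Ctrl used edgeR 4.0.16 (R 4.3.3), its quasi-likelihood test, with filterByExpr, TMM factors and no covariate, fitted on all genes; 14995 were kept by the filter. Benjamini-Hochberg adjustment ran over all of them and genes were called below 0.05. SE is the log2 fold change over the square root of F. CPM are TMM-normalized, and exon lengths come from GENCODE M21. Alternatives were DESeq2 1.42.0, limma-voom (limma 3.58.1), other scalings and filters, a replicate block and leaving out each library. The fit was tested on simulated data. With 2 libraries a group an exact two-sided permutation test cannot go below p = 0.333, so none was run. Gaps between libraries used log2(CPM + 0.05).

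Members and lists were chosen with earlier results of these data known. Named are all members, the 4 genes of smallest p in each pathway list, genes of the sort, the closest genes by pattern, and cell type markers that move with a result; Relb, Traf1, Il15, Il12b, Samsn1, Tmem123, March1, Vtcn1 and Nectin3 were added after their values were seen, and some genes under the rule are not reported here. Symbols came from the authors' table or GENCODE, and March1 through a RefSeq synonym. The counting interval covers counting error only.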

Additional observations from a re-analysis of the deposited data

How the results depend on the processing

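No ligand gene and no gene of the pathway lists was called under any alternative run: DESeq2, limma-voom, RLE size factors, library size alone, no filter, 1 CPM in 2 libraries (which dropped Tnfsf4), the replicate block, or leaving out each library in turn; the pathway counts, the values of list genes without Ctrl 1 and the shares of all genes given here were added after seeing the data. Over all genes the call count was 1 in the edgeR test, 0 with library size alone, no filter or limma-voom, 53 with DESeq2, and 0 to 36 with a library left out. With the replicate block it was 33. Deviations of same-numbered libraries from their group means correlated at -0.032. With 2 libraries a group this is a single value, and whether same-numbered libraries shared a batch was not tested. Of 109 member values under alternatives, 100 kept direction and call and 9 changed sign. These were Cd40 with library size alone (0.05), Cd40 (0.10) and Pvr (0.21) without Il33flx 2, and, without Ctrl 1, Cd40 (0.35), Cd86 (-0.27), Cd274 (0.00), Pdcd1lg2 (0.46), Icosl (0.09) and Pvr (0.08). The cause was not tested. With each library left out in turn, Cd40 ran from -0.34 to 0.35, Cd86 from -0.27 to 0.58, Pdcd1lg2 from -0.51 to 0.46, Icosl from -0.26 to 0.09, Pvr from -0.43 to 0.21, Cd80 from 0.05 to 0.45, Cd274 from -0.64 to 0.00, Tnfsf4 from 0.48 to 2.56, Tnfsf9 from -0.33 to 0.00 and Vsir from -0.50 to -0.03. The median log2 fold change of the members lay between -0.30 and 0.08 with a library left out and between -0.11 and -0.01 otherwise. Members higher without overlap numbered 1, or 2 with library size alone and 1 to 5 with a library left out; members lower without overlap numbered 1, or 0 with library size alone and 2 to 6 with a library left out. Of all tested genes, 21.4% were higher and 10.1% lower without overlap with library size alone, and 29.9% to 40.9% were higher and 26.6% to 37.7% lower with a library left out, the most in each direction without Ctrl 2. Among the ligands, depth was lowest for Tnfsf4, whose 3 to 21 counts leave a wide interval.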

Other observations

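Markers of other cell types were summed beside the ligands. The 12 neutrophil markers came to 684 and 482 CPM in Il33flx, against 393 and 375 CPM in Ctrl, with 5 of 12 higher and 0 lower without overlap. The 12 erythroid markers came to 63.6 and 33.7 CPM in Il33flx, against 34.7 and 18.1 CPM in Ctrl, with 9 of 12 higher and 0 lower without overlap. Car2 was the largest part of this sum, with 25.2 and 17.2 CPM in Il33flx, against 27.6 and 11.3 CPM in Ctrl. Both Car2 and the sum overlapped between the groups. The 8 plasmacytoid DC markers came to 342 and 216 CPM in Il33flx, against 268 and 255 CPM in Ctrl, with 0 without overlap in either direction. Over all tested genes, 15.4% were higher and 14.9% lower without overlap. None of these markers was called in the edgeR fit of all 4 libraries, and this does not extend to fits with a library left out. In edgeR, 4 neutrophil, 8 erythroid and 0 plasmacytoid DC markers had an unadjusted p under 0.05, beside 489 of all 14995 genes tested. Without Ctrl 1, which leaves Ctrl 2 as the only Ctrl library, the log2 fold change was positive for 9 neutrophil markers and negative for 3. In that fit it was positive for 12 of 12 erythroid and 12 of 12 B cell markers. Of the plasmacytoid DC markers, 6 were positive and 2 negative. The median over all genes tested in that fit was 0.02.

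The 8 type 1 conventional DC markers came to 7102 and 7612 CPM in Il33flx, against 9256 and 8067 CPM in Ctrl, and 3 were lower and 0 higher without overlap. Irf8 was the largest part of this sum, with 3346 and 3819 CPM in Il33flx, against 4817 and 3946 CPM in Ctrl. The log2 fold change was negative for 6 of the 8 and positive for 2, Xcr1 (0.25) and Clec9a (0.11). Its median over the 8 was -0.26, or -0.07 without Ctrl 1, where 2 were positive and 6 negative. Of the 8, 5 were highest in Ctrl 1, beside 34.2% of all tested genes. The 8 type 2 markers came to 627 and 582 CPM in Il33flx, against 617 and 548 CPM in Ctrl, and 2 were higher and 0 lower without overlap. In both lists 0 were called and 0 had an unadjusted p under 0.05 in edgeR.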
